A study of Mus musculus with 8 samples.

Results

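Synaptotagmins are membrane proteins of synaptic and secretory vesicles that carry a pair of C2 domains, and 10 of their genes were followed in the neonatal mouse brain: Syt1, Syt2, Syt3, Syt4, Syt5, Syt6, Syt7, Syt9, Syt11 and Syt13. They were picked by gene symbol from a table of 32285 genes, and all 10 were in the table and passed the filter on low counts that left 15565 genes. The set was drawn up with results of the ICSI-F2 comparison known, so the values of the 10 genes in that comparison are given as a description. Where calls are counted for them in it, nothing is read from the counts. The study counted messenger RNA of brain tissue in 4 libraries of ICSI-F2 neonates and 4 libraries of control neonates, all of the C57BL/6 strain. ICSI, intracytoplasmic sperm injection, fertilises an egg by placing a sperm inside it. The ICSI-F2 neonates were males sired by ICSI-born males through natural mating, and the controls were born to wild-type parents that mated naturally. The day of age of either group and the sex of the controls are not in the labels. Whether each library is a separate animal is not stated either, so p-values measure the spread between these libraries only. Sample titles carry a code letter of unstated meaning, F for ICSI-F2 replicates 1 and 2, G for ICSI-F2 replicates 3 and 4, A for control replicates 1 and 2 and D for control replicates 3 and 4.

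The best known synaptotagmins sense calcium. When an action potential opens calcium channels at a nerve terminal, calcium binds the C2 domains of the vesicle's synaptotagmin, which then acts on the assembled SNARE proteins and the membrane so that the vesicle fuses. Syt1 does this for fast release at most forebrain synapses and Syt2 at many synapses of hindbrain, spinal cord and the neuromuscular junction, while Syt7 serves slower, asynchronous release and lysosome exocytosis. Not all members bind calcium: Syt4 and Syt11 lack a residue of the calcium site in their first C2 domain, and Syt13 lacks much of it.

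The proteins fell into classes that the choice of genes did not use. Global alignment of 1 translated GENCODE coding sequence a gene gave 79.2% identical residues for Syt1 and Syt2, the closest of 45 pairs. Syt5 was nearest to Syt1, at 59.7%. Syt6 and Syt9 shared 59.8%, Syt3 and Syt9 56.3% and Syt3 and Syt6 54.9%, which set these 3 together. Syt4 and Syt11 shared 57.1%. Syt7 was nearest to Syt2, at 47.1%, and Syt13 stood furthest from the rest, with 34.9% to its closest member, Syt4. The numbering of Syt5 and Syt9 has been used in both ways in the literature, and the symbols here are those of the count table, whose Syt5 encodes 386 and Syt9 491 residues. No window of 76 bases, the read length, was shared between the transcripts of any member and another synaptotagmin, so a whole read of one member does not match another exactly. Windows were shared with genes outside the family for Syt4 (8.93%), Syt6 (7.01%) and Syt7 (3.81%), on the opposite strand. For Syt11 it was 4.28% of windows, shared with 124 genes.

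Per exon length the 10 genes spanned a wide range of levels, and the calcium-independent Syt4 led. Levels between genes are given as CPM, counts per 1000000 counts of the TMM-scaled library, divided by the kilobases of merged exons. Syt4, which is known from dense-core vesicles and as an activity-induced gene, stood at 91.9 ± 1.79 CPM per kilobase (SD over all 8 libraries). Its relative Syt11, linked to vesicle recycling and lysosomes, followed at 58.4 ± 2.1 CPM per kilobase. Syt1 stood at 47.2 ± 1.57, Syt5 at 36.2 ± 1.78, Syt7 at 29.7 ± 0.96 and Syt13 at 27.1 ± 1.36 CPM per kilobase. The class of Syt3, Syt6 and Syt9 was lower, at 12.5 ± 0.767, 8.05 ± 0.792 and 7.07 ± 0.399 CPM per kilobase. Syt2 closed the order at 1.95 ± 0.946 CPM per kilobase. In the order of levels the 8-library ranges of Syt7 and Syt13 overlapped (ratio of means 1.09), as did those of Syt6 and Syt9 (ratio 1.14), and the other neighbours were apart in every library. The same order held in 7 of 8 libraries. In the remaining one, ICSI-F2 replicate 1, Syt13 stood above Syt7 and Syt9 above Syt6. The lead of Syt4 depends on the division by length. In mean CPM Syt1 was highest at 393.6, ahead of Syt4 at 357.5 and Syt11 at 304.1. The merged exons of Syt1 come from 6 transcripts and span 8338 bases, and those of Syt4 come from 1 transcript and span 3892 bases.

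**Figure D1:**
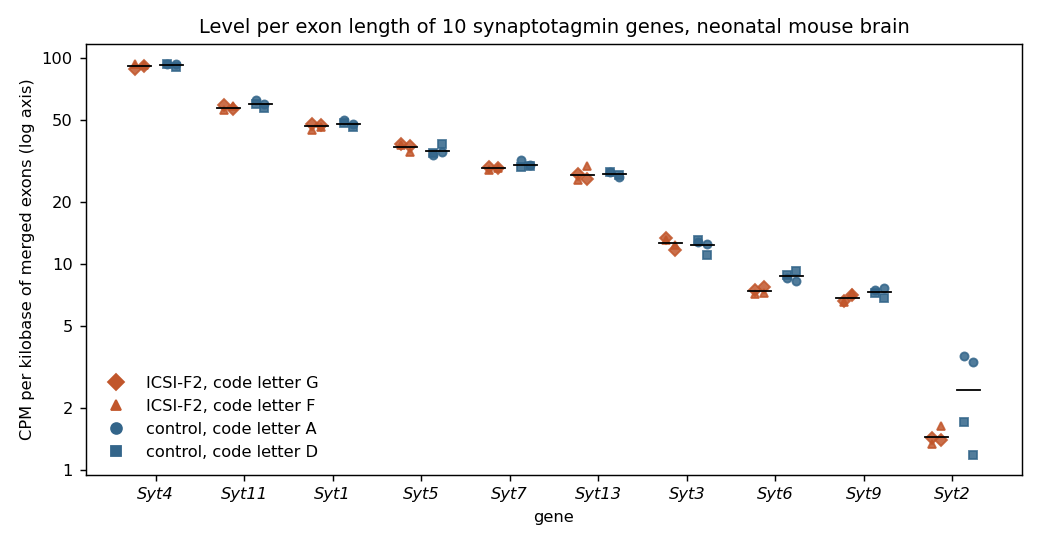
Level of each synaptotagmin gene in each library, as CPM per kilobase of merged exons on a log axis, with ICSI-F2 left of control for each gene, marker shape for the code letter and a line at the group mean. Levels run from 91.9 for Syt4 to 1.95 for Syt2, and among these genes Syt2 shows the widest spread, with the control libraries of letter A at 3.58 and 3.32.

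As shares of the summed level of the 10 genes per kilobase, Syt4 made up 27.8% to 29.7% in the 8 libraries, Syt11 17.7% to 18.8% and Syt1 14.3% to 15%. Syt6 made up 2.26% to 2.92% and Syt2 0.372% to 1.08%. The family sum was 316.4 ± 2.98 CPM per kilobase in ICSI-F2 and 323.7 ± 6.13 CPM per kilobase in control brains (SD, n = 4 each). The SD of Syt1, Syt4, Syt7 and Syt11 was 1.19% to 3.61% of the group mean, where counting alone gives 1.28% to 1.82%. Exon lengths of all annotated transcripts were merged, so a gene that uses mainly a short transcript is understated on this scale.

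The 7 other synaptotagmin genes all had a mean below that of Syt3. Syt16 led them at 11.6 ± 0.373 and Syt14 followed at 7.05 ± 0.336 CPM per kilobase (SD over all 8 libraries). Syt17, Syt10, Syt12 and Syt15 stood at 3.11, 1.86, 1.13 and 0.259 CPM per kilobase. Syt8 had 0 counts in every library, which allows a level of up to 0.183 to 0.23 CPM in single libraries (3 counts, counting error only).

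Syt6 was the member whose groups did not overlap. In mouse neocortex Syt6 is used as a marker of deep-layer corticothalamic neurons, and the protein has been studied in the acrosome reaction of sperm. It stood at 42, 41.4, 43.6 and 44.9 CPM in ICSI-F2 replicates 1 to 4, against 49.6, 48.4, 53.9 and 51.5 CPM in control replicates 1 to 4. All 4 ICSI-F2 libraries thus lay below all 4 controls, and the libraries of both letters in a group lay on the same side. The group levels were 43 ± 1.58 CPM in ICSI-F2 and 50.8 ± 2.43 CPM in control (SD, n = 4 each), on 540 to 688 counts in ICSI-F2 and 713 to 857 counts in control libraries. The fitted log2 fold change was -0.24 (SE 0.05). Of all tested genes, 2% were lower in ICSI-F2 with no overlap of the groups and 1.97% higher, 3.97% in all, and nothing is read from this because the members were chosen with the contrast known.

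Fewer cells of a type and less RNA per cell cannot be told apart in RNA of a tissue. Of 10 pan-neuronal genes, 9 had a lower fitted level in ICSI-F2, beside 49.6% of all tested genes. None was called in edgeR or DESeq2, and 3 had an unadjusted p under 0.05, where 525 of 15565 genes had one on the lower side. Without the letter A libraries 7 of the 10 pan-neuronal genes were lower, with a median of -0.019, against -0.036 with all 8 libraries. Their summed level was 10110 to 10240 CPM in ICSI-F2 and 10380 to 10570 CPM in control libraries, and no marker of this list was at 0. Set against that sum, Syt6 stood at 4.1, 4.1, 4.29 and 4.44 CPM per 1000 pan-neuronal CPM in ICSI-F2 replicates 1 to 4, and at 4.69, 4.65, 5.19 and 4.9 in control replicates 1 to 4. On that scale, chosen after the data were seen, the groups were also apart, with a log2 difference of -0.20, against -0.24 on the CPM scale. The sum spanned only 10110 to 10570 CPM over all libraries, so dividing by it could change little. The members were also chosen with the contrast known, so nothing is read from this. Of 8 oligodendrocyte lineage genes all 8 were lower in ICSI-F2 (median -0.12 on the log2 scale), 4 of them at an unadjusted p under 0.05, and without the letter A libraries 5 of 8 were lower. Their sum was 265.9 to 295.7 CPM in ICSI-F2 and 274 to 320.4 CPM in control libraries. Of 8 astrocyte genes 7 were lower, with a median of -0.16 and 1 at an unadjusted p under 0.05, and without the letter A libraries 2 of 8 were lower. Neither edgeR nor DESeq2 called any of these 16, none of them was at 0, and their part in the Syt6 values was not tested. Without the letter A libraries the log2 fold change of Syt6 was -0.30. The blood list of 7 genes summed to 16.2 to 17.6 CPM in ICSI-F2 and 9.28 to 13.8 CPM in control libraries, with 1 or 2 of its genes at 0 in each library, and its part in the Syt6 values was not tested. The meninges list of 9 genes, with none at 0, summed to 575 and 565 CPM in the letter G libraries, to 431 and 428 CPM in the letter F libraries and to 403 to 438 CPM in controls. Of a liver list, Alb and Afp had means of 15.3 and 4.57 CPM in letter G and at most 0.0689 and 0.0994 CPM in the other letters. Ttr, also of that list, was lowest in G, at 309.9 CPM. The part of either list in the Syt6 values was not tested. Without the letter G libraries the log2 fold change of Syt6 was -0.28. Per kilobase, Syt6 stood at 99.3, 109, 113 and 109 per 100 of its relative Syt9 in ICSI-F2 replicates 1 to 4 and at 114, 109, 136 and 122 in control replicates 1 to 4, where the groups overlapped between 109 and 113.

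In mm10, Syt6 (ENSMUSG00000027849) spans bases 103575231 to 103645569 of chromosome 3 and is read from the plus strand. The exons sum to 5828 bases once merged. Atg4a-ps, a gene with 23 counts over all 8 libraries, has exons on the minus strand that cover 505 of these bases (8.67%). Of the 6180 windows of 76 bases of Syt6, 433 (7.01%) also occur, on the opposite strand, in Atg4a-ps or Atg4a. The strand setting of the authors' counting is not stated, so reads from this stretch cannot be placed with certainty.

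RefSeq on GRCm38.p6 gives 3 start sites for Syt6. The sequence around the first is shown because Syt6 is the member with separate groups, and it runs from 250 bases before to 50 after the start, on the plus strand at chr3:103574995-103575294. Capitals mark GC boxes, GGGCGG on either strand.
Syt6 promoter: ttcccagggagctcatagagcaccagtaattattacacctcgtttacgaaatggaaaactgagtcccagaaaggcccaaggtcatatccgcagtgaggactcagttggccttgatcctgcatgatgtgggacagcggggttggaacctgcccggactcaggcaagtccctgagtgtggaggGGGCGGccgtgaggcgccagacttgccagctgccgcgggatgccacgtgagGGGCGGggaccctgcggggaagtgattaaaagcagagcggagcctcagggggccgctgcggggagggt
It holds 2 GC boxes and 16 CpG pairs, where the median over 32851 promoters of this length is 7 CpG pairs.

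Syt2 was the member with the widest spread, and it split the control group by code letter. Syt2 is the fast calcium sensor of many hindbrain and spinal synapses. It stood at 12.4, 10.2, 10.9 and 10.6 CPM in ICSI-F2 replicates 1 to 4, against 27.4, 25.4, 9 and 13 CPM in control replicates 1 to 4. Only the 2 control libraries of letter A were high, and the other 2 controls lay just below and just above the ICSI-F2 range. The group levels of 11 ± 0.976 CPM in ICSI-F2 and 18.7 ± 9.06 CPM in control (SD, n = 4 each) hide this split. The fitted log2 fold change of ICSI-F2 over control was -0.76 (SE 0.39), and without the code letter A libraries it was 0.02 (SE 0.14).

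The letters were then compared within each group, with edgeR's quasi-likelihood test on 1 mean per letter and Benjamini-Hochberg adjustment over 15565 genes. Between letters A and D of the controls, 149 genes passed at an adjusted p of 0.05, 0.7% of tested genes higher in A and 0.257% lower. Among the 10 synaptotagmins Syt2 passed, and its level was 2.42 times as high in A as in D. On the log2 scale this was 1.27 (SE 0.13), and the 95% interval ran from 1.01 to 1.54. The adjusted p was 4.3e-07 in edgeR and 1.55e-08 in DESeq2. The call held in all 13 alternatives. The log2 fold change was 1.02 to 1.55 when single control libraries were left out. It was 1.27 to 1.28 without single ICSI-F2 libraries, which are in neither letter and so could hardly move it. Between letters G and F of ICSI-F2 Syt2 stood at -0.08 on the log2 scale (SE 0.15, edgeR adjusted p = 0.973), and the 95% interval ran from -0.39 to 0.23. The A against D contrast shares its 4 libraries with the ICSI-F2 comparison.

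Genes of hindbrain and spinal cord had their highest levels in the same letter A libraries. The summed level of 12 such genes, 10 Hox genes with the glycine transporter gene Slc6a5 and Pax2, was 118 and 68.7 CPM in control replicates 1 and 2 of letter A, with none at 0. In control replicates 3 and 4 of letter D it was 1.57 and 3.11 CPM, with 9 and 6 of the genes at 0. In ICSI-F2 the sum was 6.97 and 0.988 CPM for letter G, with 2 and 10 genes at 0, and 14.8 and 3.53 CPM for letter F, with 5 and 7 genes at 0. Of the 12, 3 passed the filter, and all 3 were higher in A than in D with an unadjusted p under 0.05, but edgeR called none and DESeq2 called 1. Slc6a5 stood at 26.1 and 21.8 CPM in the A libraries, against 1.07 and 1.81 CPM in the D libraries. Tissue content and whatever the letter marks cannot be told apart here, and the part of either in the Syt2 values was not tested.

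Several astrocyte genes were higher in the A libraries as well. Of 8 astrocyte genes all 8 were higher in A than in D, with a median log2 fold change of 0.28, 7 at an unadjusted p under 0.05, 3 called by edgeR and 2 by DESeq2. Of all 15565 tested genes, 50.3% had a fitted value below 0, and 956 had an unadjusted p under 0.05 on the higher side. Called higher were 109 (0.7%) by edgeR and 50 by DESeq2. Gja1 was highest in letter G, at a mean of 152.6 CPM against 128.3 CPM in A. It was called in G over F (0.46, edgeR adjusted p = 6.67e-06). Aqp4, the water channel of astrocyte endfeet, stood at 62.4 and 54.6 CPM in A and 33.2 and 36.9 CPM in D libraries, a log2 fold change of 0.74 (SE 0.09, edgeR adjusted p = 3.25e-05) that was called in all 13 alternatives. Aldoc, a glycolytic enzyme gene of astrocytes, stood at 0.50 on the log2 scale (SE 0.07, edgeR adjusted p = 0.000489), and its call was lost without control replicate 3 (adjusted p = 0.0576). Agt, which encodes angiotensinogen, stood at 0.67 (SE 0.16, edgeR adjusted p = 0.0363), and its call was lost with DESeq2 (adjusted p = 0.316) and in edgeR without control replicates 1, 2 or 3 (adjusted p = 0.24, 0.123 and 0.482). The astrocyte sum was 1122 and 1038 CPM in A and 876 and 925 CPM in D libraries, and in ICSI-F2 959 and 918 CPM in G and 929.8 and 805 CPM in F libraries. Of 8 oligodendrocyte lineage genes 7 were higher in A, edgeR and DESeq2 called none, and Mbp (0.30) and Sox10 (0.43) had an unadjusted p under 0.05. No gene of either list was at 0, and their part in the values of Syt2 and its partners was not tested.

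Several partners of Syt2 in vesicle fusion were, like several astrocyte genes, higher in the A libraries. Of 20 genes of SNARE proteins, complexins, SV2 and other fusion partners, 18 were tested between A and D, and 4 were higher in edgeR and none lower. DESeq2 called 4 as well, 9 had an unadjusted p under 0.05 on the higher side and none on the lower. Over all 15565 genes 956 had one on the higher side and 771 on the lower. EdgeR called 109 of all genes (0.7%) higher and 40 lower, and DESeq2 50 higher and 19 lower. The median log2 fold change was 0.11 for the partners and -0.00083 over all genes. Vamp1, a vesicle SNARE of hindbrain and spinal synapses, stood at 26.1 and 22.1 CPM in A and 14.6 and 15.8 CPM in D libraries, a log2 fold change of 0.67 (SE 0.11, edgeR adjusted p = 0.00096). Sv2c, a vesicle glycoprotein of the SV2 family, stood at 97.7 and 84.7 CPM in A and 55.6 and 58.2 CPM in D libraries, a log2 fold change of 0.68 (SE 0.07, edgeR adjusted p = 4.3e-07). Cplx1, a complexin that clamps and promotes fusion with synaptotagmin, stood at 109.9 and 99 CPM in A and 78.9 and 82.3 CPM in D libraries, a log2 fold change of 0.38 (SE 0.06, edgeR adjusted p = 0.00172). Syp, the vesicle protein synaptophysin, stood at 352 and 333 CPM in A and 292 and 297 CPM in D libraries, a log2 fold change of 0.22 (SE 0.04, edgeR adjusted p = 0.00582). For all 4 genes both A libraries lay above both D libraries. The 4 were picked by their call between these same libraries, so nothing is read from that separation. The Sv2c call held in all 13 alternatives. The calls of Vamp1, Cplx1 and Syp were lost in edgeR without control replicate 1 (adjusted p = 0.0848, 0.126 and 0.256) and without control replicate 3 (adjusted p = 0.0727, 0.0863 and 0.145), where each log2 fold change stayed positive, at 0.54 and 0.61, 0.30 and 0.35, and 0.18 and 0.20.

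For Syt2, Vamp1, Cplx1 and Sv2c, a paralog that the forebrain uses more broadly is shown, chosen for display after its values were seen. Each paralog displayed had a smaller fitted value than its counterpart. Syt1 had a log2 fold change of 0.04 (SE 0.04) in A over D, Vamp2 of 0.11 (SE 0.04), Cplx2 of 0.04 (SE 0.07) and Sv2a of 0.05 (SE 0.05), with edgeR adjusted p of 0.758, 0.313, 0.917 and 0.74. Sv2b, another gene of the SV2 family that is not displayed, stood at 0.22 (SE 0.06, edgeR adjusted p = 0.107) in A over D. Snap25 (0.17, edgeR adjusted p = 0.104) and Napb (0.16, edgeR adjusted p = 0.192) were also above 0 and not called. Of the 18 tested partners, 16 were higher in A and 2 lower. The differences between paralogs were not tested. Per kilobase, Syt2 made up 7.2 and 6.99 per 100 of Syt1 in the A libraries, against 2.56 and 3.52 in the D libraries. In ICSI-F2 it was 2.97 and 2.95 in G and 3.53 and 2.99 in F libraries. Both A libraries stood above the other 6 in this ratio.

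**Figure D2:**
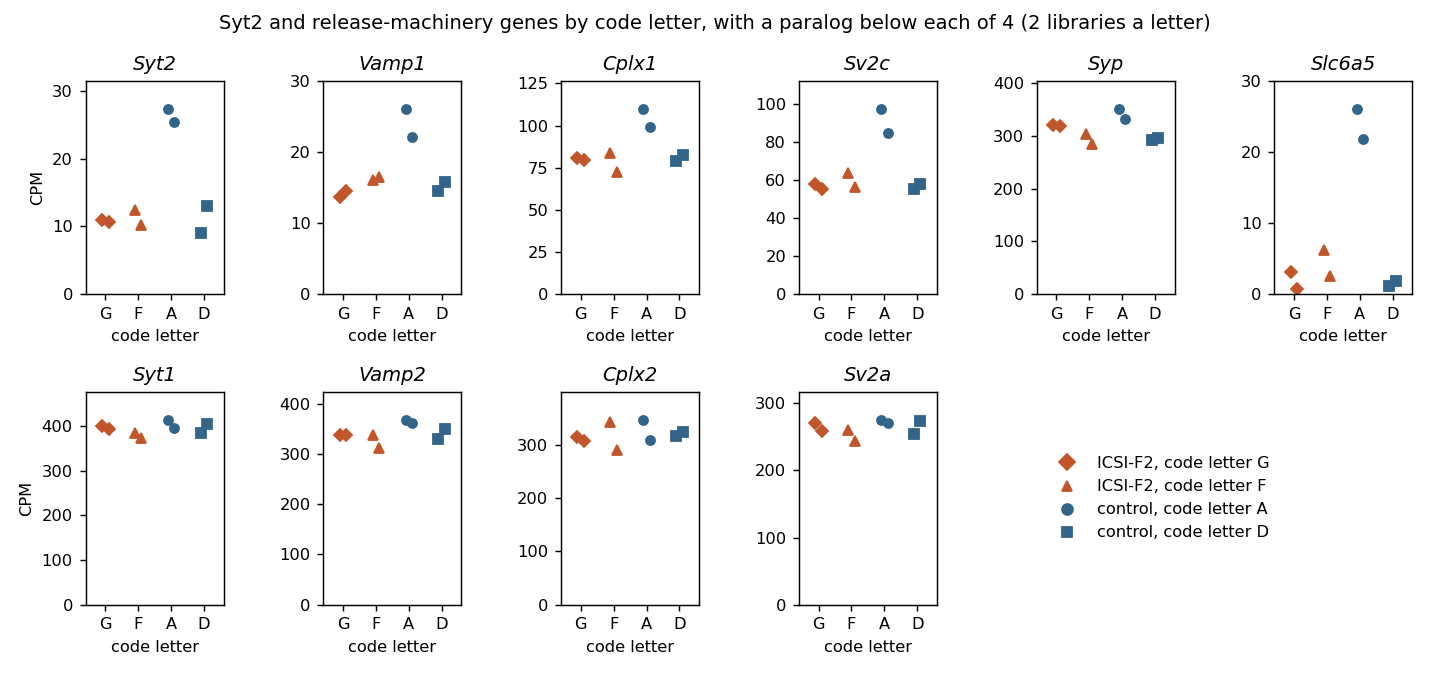
CPM by code letter for Syt2, 4 fusion genes and Slc6a5 in the upper row, and for a paralog of the first 4 in the lower row, 1 marker a library (G and F are ICSI-F2, A and D are control). Both A libraries lie above the other 6 for every upper gene and, in the lower row, for Vamp2 (368 and 361 CPM in A, at most 349 CPM in the others), and not for Syt1, Cplx2 or Sv2a. Syt2 and the 4 fusion genes were called in A over D, so their separation of A from D is no further support.

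The sequences around the 2 RefSeq start sites of Syt2 are shown because this gene alone among the 10 was called between letters. The first start site of Syt1, the closest relative of Syt2, is shown as well. In mm10, Syt2 (ENSMUSG00000026452) spans bases 134646677 to 134762593 of chromosome 1. The windows, on GRCm38.p6, are chr1:134646362-134646661 and chr1:134709050-134709349 on the plus strand for Syt2 and chr10:109010926-109011225 on the minus strand for Syt1, with GC boxes in capitals.
Syt2 promoter 1: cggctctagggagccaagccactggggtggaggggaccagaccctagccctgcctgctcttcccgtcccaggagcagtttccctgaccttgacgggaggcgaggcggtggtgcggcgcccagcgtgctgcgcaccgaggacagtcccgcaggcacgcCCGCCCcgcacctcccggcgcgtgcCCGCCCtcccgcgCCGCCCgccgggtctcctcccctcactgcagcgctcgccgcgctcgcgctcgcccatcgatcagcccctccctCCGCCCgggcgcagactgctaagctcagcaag
Syt2 promoter 2: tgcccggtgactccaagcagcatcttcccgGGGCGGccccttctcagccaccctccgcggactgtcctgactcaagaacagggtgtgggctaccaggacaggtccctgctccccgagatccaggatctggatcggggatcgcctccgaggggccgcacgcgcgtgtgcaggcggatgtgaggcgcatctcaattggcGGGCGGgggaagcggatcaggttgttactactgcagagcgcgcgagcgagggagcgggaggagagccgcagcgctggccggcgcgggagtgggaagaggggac
Syt1 promoter 1: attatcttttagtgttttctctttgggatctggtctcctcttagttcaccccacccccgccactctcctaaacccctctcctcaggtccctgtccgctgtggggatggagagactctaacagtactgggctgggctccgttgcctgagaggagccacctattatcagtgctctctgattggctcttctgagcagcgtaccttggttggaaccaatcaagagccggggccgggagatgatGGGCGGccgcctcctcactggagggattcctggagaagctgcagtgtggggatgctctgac
The Syt2 windows hold 4 and 2 GC boxes and 34 and 28 CpG pairs, and the Syt1 window 1 GC box and 8 CpG pairs. A GC box on either strand occurs in 35.7% of the 32851 promoters. Syt4 was left out of this search, and RefSeq windows are reported for 6 of the 10 members. None of their 10 windows held a TATA box (TATAAA, in 13.6% of all promoters) or a cAMP response element (TGACGTCA, in 1.79%), both searched on either strand, and neither overlaps the GC box in letters. The counts do not tell which start site was used.

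Apart from Syt2 none of the 10 synaptotagmins passed the test between letters. In A over D 3 of the 10 had a fitted value below 0, beside 50.3% of all tested genes, and the log2 fold changes of the 9 besides Syt2 ran from -0.11 for Syt6 to 0.10 for Syt9, with edgeR adjusted p of 0.606 to 0.969. In G over F all 10 lay between -0.08 for Syt2 and 0.09 for Syt6, with edgeR adjusted p of 0.817 to 0.996. In that contrast edgeR called none of the 10, none had an unadjusted p under 0.05 and DESeq2 called none, beside 0.263% of all tested genes, 0.206% of them higher in G. Below 0 were 5 of the 10, beside 50.4% of all tested genes. Syt6 itself had 49.6 and 48.4 CPM in A and 53.9 and 51.5 CPM in D libraries, and 43.6 and 44.9 CPM in G and 42 and 41.4 CPM in F libraries. Its 95% intervals were -0.25 to 0.03 in A over D and -0.07 to 0.24 in G over F. Of the 6 other synaptotagmin genes tested, edgeR and DESeq2 called none in either contrast. In A over D 2 had an unadjusted p under 0.05, Syt10 at 0.59 (SE 0.24, edgeR adjusted p = 0.319) and Syt14 at -0.13 (SE 0.06, edgeR adjusted p = 0.4), and Syt12 stood at 0.34 (SE 0.17). In G over F none had one, and the values ran from -0.46 for Syt15 (SE 0.41) to 0.35 for Syt12 (SE 0.18).

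**Figure D3:**
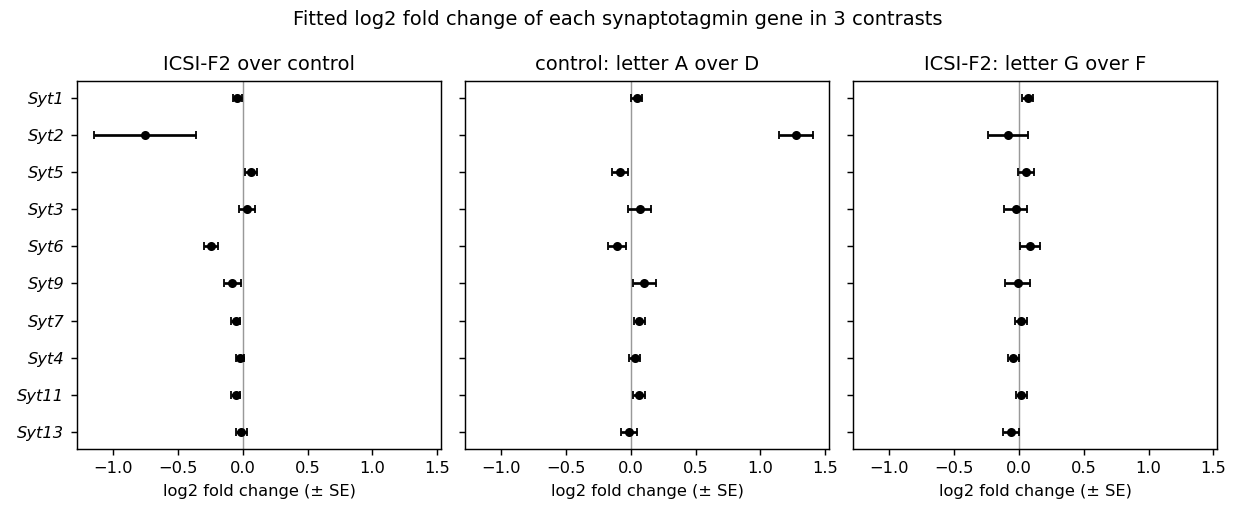
Fitted log2 fold change with its SE for each synaptotagmin gene in ICSI-F2 over control, in control letter A over D and in ICSI-F2 letter G over F. Syt2 stands at -0.76 in the first panel and 1.27 in the second, Syt6 at -0.24 in the first, and the other 8 genes lie within 0.11 of 0 in all 3.

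The other members of the fast-release class were near equal in the 2 groups. Syt1 stood at 385, 373, 400.1 and 394 CPM in ICSI-F2 replicates 1 to 4 and at 414, 396, 383 and 403 CPM in control replicates 1 to 4, with overlapping groups and a log2 fold change of -0.04 (SE 0.03). Syt5, a calcium-binding member found on secretory vesicles, stood at 83.5, 89.5, 90.8 and 88.7 CPM in ICSI-F2 and at 80.6, 83, 91 and 82.3 CPM in control replicates, and its log2 fold change was 0.06 (SE 0.05). The groups of Syt5 overlapped as well, with its highest value in control replicate 3.

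Syt3 and Syt9, the closest to Syt6 among the 10 aligned members, did not share its separation. The 7 other synaptotagmins were not aligned. Syt3, a calcium sensor of high affinity that also acts in postsynaptic receptor uptake, stood at 38.5, 40.7, 41.5 and 36.2 CPM in ICSI-F2 replicates 1 to 4 and at 39.6, 39, 34.5 and 40.7 CPM in control replicates 1 to 4. Its log2 fold change was 0.03 (SE 0.06). Syt9, studied in dense-core vesicle release, stood at 28.9, 25.9, 26.3 and 28.2 CPM in ICSI-F2 and at 29.6, 30.4, 27.1 and 28.8 CPM in control replicates, a log2 fold change of -0.08 (SE 0.07). In both genes the groups overlapped.

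Syt7 and the calcium-independent members also overlapped between groups. Syt7 stood at 219, 214, 220.3 and 218 CPM in ICSI-F2 replicates 1 to 4 and at 238, 225, 223 and 220.0 CPM in control replicates 1 to 4, and the highest ICSI-F2 library was just above the lowest control. Its log2 fold change was -0.06 (SE 0.03). Syt4 and Syt11 had 355 ± 7.39 and 298 ± 7.94 CPM in ICSI-F2 and 360.3 ± 6.16 and 309.9 ± 11.2 CPM in control (SD, n = 4 each), log2 fold changes of -0.02 (SE 0.03) and -0.06 (SE 0.03). Syt13, known from endocrine cells of the pancreas, spread most in ICSI-F2, at 112, 95.6, 102 and 96.9 CPM, against 105, 99.4, 101 and 105 CPM in control. Its log2 fold change was -0.01 (SE 0.05).

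**Figure D4:**
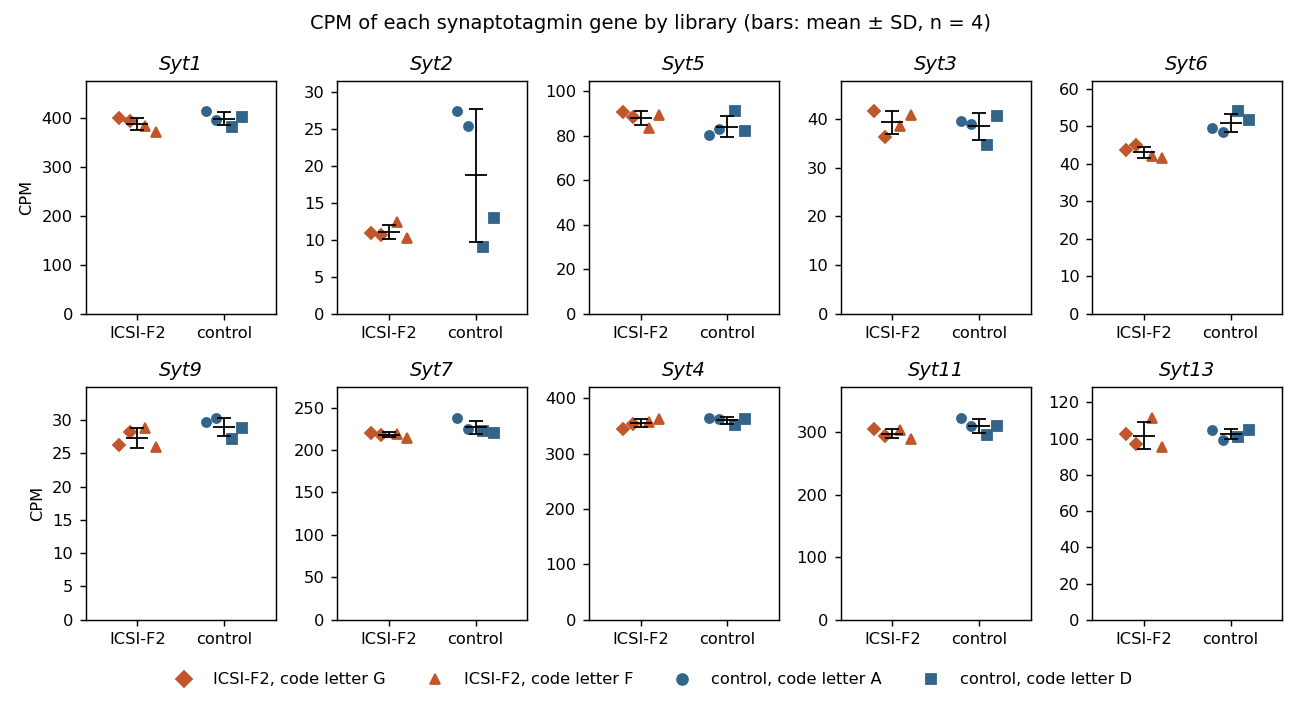
CPM of each synaptotagmin gene in each library, ICSI-F2 left of control, with marker shape for the code letter and bars for the mean and SD of 4 libraries, on axes that start at 0. Syt6 is the gene with no overlap, at 41.4 to 44.9 CPM in ICSI-F2 and 48.4 to 53.9 CPM in control, and Syt2 is the gene with a split control group.

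Seen as a set, 8 of the 10 members had a lower fitted level in ICSI-F2, with a median log2 fold change of -0.05, while 49.6% of all tested genes were lower and their median was 0.00065. Of the 10, edgeR called none, 1 (Syt6) had an unadjusted p under 0.05 and DESeq2 called none, beside a background of 0.00642% of tested genes called. With every gene that had a count kept, edgeR called 1 member, beside 0.0622% of 24101 genes called lower. The members were chosen with this contrast known, so these counts are no test of them and nothing is read from any of them. Of the 6 other synaptotagmin genes tested, 3 were lower and 3 higher in ICSI-F2, from -0.24 for Syt10 (SE 0.20), which was 0.09 without the letter A libraries, to 0.04 for Syt17 (SE 0.10). None was called by edgeR or DESeq2 and none had an unadjusted p under 0.05. Syt14 was at 0.02 (SE 0.05), Syt16 at 0.0071 (SE 0.04), Syt12 at -0.01 (SE 0.14) and Syt15 at -0.06 (SE 0.28).

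Most partners in fusion had a lower fitted value in ICSI-F2 with all 8 libraries, and fewer did without those of letter A. Of 18 tested genes of SNARE proteins and fusion partners, 16 were lower and 2 higher, beside 49.6% of all tested genes lower, with a median log2 fold change of -0.06. None was called by edgeR or DESeq2, and 2 had an unadjusted p under 0.05, both lower. Vamp2, a SNARE of the vesicle membrane, had a log2 fold change of -0.09 (SE 0.04), with an edgeR adjusted p of 0.607. Without the code letter A libraries 8 of 19 tested partners were lower, with a median of 0.01, and 7 of the 10 members, with a median of -0.02. Vamp2 was at -0.03 without the letter A libraries. Vamp1 and Cplx1 were both called in A over D. Their fitted values were -0.37 and -0.23 with all 8 libraries and 0.0078 and -0.03 without those of letter A. Without the letter G libraries 15 of 19 tested partners were lower, with a median of -0.08.

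Other genes with C2 domains that act in exocytosis were split. Of 15 tested, 6 were lower and 9 higher in ICSI-F2, beside 49.6% of all tested genes lower, with a median log2 fold change of 0.02. Without the letter G libraries 11 of 17 were lower and the median was -0.03. None was called by edgeR or DESeq2, and 2 had an unadjusted p under 0.05, both higher. Unc13b, a priming factor of vesicles, stood at 125, 139.9, 130.3 and 135 CPM in ICSI-F2 replicates 1 to 4 and at 118, 113, 126 and 126 CPM in control replicates 1 to 4, a log2 fold change of 0.13 (SE 0.04, edgeR adjusted p = 0.539). Rims2, an active zone scaffold, stood at 147, 155, 144 and 146 CPM in ICSI-F2 and at 137, 139.8, 138 and 139 CPM in control replicates. Its log2 fold change was 0.10 (SE 0.04, edgeR adjusted p = 0.562). The groups of Rims2 were apart, beside 1.97% of all tested genes that were higher in ICSI-F2 with no overlap. This list was chosen with earlier results known, so nothing is read from the separation. Esyt1, an extended synaptotagmin of membrane contact sites, was at -0.12 (SE 0.10, edgeR adjusted p = 0.828). Between letters A and D edgeR and DESeq2 called none of these 15, with 2 at an unadjusted p under 0.05, Unc13a (-0.12, edgeR adjusted p = 0.291) and Unc13b (-0.13, edgeR adjusted p = 0.368). Sytl4, a synaptotagmin-like gene, had the next smallest p, at 0.92 (SE 0.47, edgeR adjusted p = 0.478). Between G and F edgeR and DESeq2 called none, with none at an unadjusted p under 0.05. There Rims1, Doc2b and Unc13c had the smallest p, at log2 fold changes of 0.07, 0.09 and 0.10 and edgeR adjusted p of 0.864, 0.886 and 0.893. Among the fusion partners between G and F edgeR and DESeq2 called none, and Syp alone had an unadjusted p under 0.05 (0.12, edgeR adjusted p = 0.515), ahead of Vamp1 (-0.21, adjusted p = 0.794) and Sv2a (0.07, adjusted p = 0.832).

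Likeness of pattern was measured as the root mean square difference of log2 CPM over the 8 libraries, after centring each gene on its mean. For Syt2, whose own range was 1.55 on the log2 scale, the 5 closest genes were Mab21l2 (0.149), Pax8 (0.183), Nefh (0.227), Calca (0.244) and Slc18a3 (0.272). Mab21l2 stood at 15.6, 13.4, 16.1 and 10.6 CPM in ICSI-F2 replicates 1 to 4 and at 35.1, 30.2, 12.3 and 15.9 CPM in control replicates 1 to 4, high in the same 2 libraries. For Syt6, with a range of 0.376, they were Uck1 (0.0527), Tmem198b (0.0578), Acvr1c (0.0619), Wdhd1 (0.0632) and Idi1 (0.0657). Uck1 stood at 24.8, 26, 26.8 and 27.4 CPM in ICSI-F2 and at 28.8, 28.7, 31 and 33.2 CPM in control replicates. The closest of 15565 genes are found by search, so a close match is a description only.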

How the data were processed

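RNA of neonatal brain was sequenced as single reads of 76 bases from stranded mRNA libraries, per the labels. The submitters' processing notes list HISAT2 2.2.1, HTSeq 2.0.2, cutadapt 3.4 and bcl2fastq 2.20, and mm10 as build. The title line of the authors' table calls its values raw counts, 1 column a library, and they are whole numbers. No annotation release or strand setting is stated. Library totals were 12968175 to 16551511 counts, and of 32285 identifiers 32158 (99.6%) matched GENCODE M21, which gave exon lengths and coding sequences. CPM used library sizes scaled by TMM factors of 0.989 to 1.01, and log2 CPM an offset of 0.5.

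Titles gave groups and letters. Replicate numbers follow the order of deposition and pair nothing. Genes that passed filterByExpr (15565) were tested by the robust quasi-likelihood method of edgeR 4.0.16 (R 4.3.3) with Benjamini-Hochberg adjustment at 0.05, once by group and once by letter with shared spread, and DESeq2 1.42.0 was an alternative. SE and 95% intervals derive from the F statistic. Named are all 17 synaptotagmins and, of each partner list, the genes past the threshold or, with none, the 3 of smallest p. Up to 3 genes of a marker list are named by their fold between letters. Mbp, Sox10, Gja1, Ttr, Sv2b, Snap25 and Napb are named after their values were seen. Some genes that this rule names are not reported here. The members and lists were chosen with earlier results of these data known. Intervals and floors cover counting error only where so stated.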

Additional observations from a re-analysis of the deposited data

How the results depend on the processing

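No paired analysis was possible because replicate numbers follow the order of deposition and the labels pair no libraries. For Syt6 in ICSI-F2 over control the log2 fold change lay between -0.30 and -0.21 in the 14 alternatives. Syt3, Syt4 and Syt13, all within 0.03 of 0 there, kept their sign in 13, 13 and 9 of 14, and the cause was not tested. Normalization by DESeq2 size factors or by total library size moved the median of all genes by at most 0.0111 on the log2 scale. The number of synaptotagmins called in ICSI-F2 over control was 0 with edgeR and all 8 libraries, and 1 with no filter on low counts, from which nothing is read.

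Counts over all genes depended on settings, and the cause was not tested. In ICSI-F2 over control 1 gene was higher and 0 lower, against 35 and 15 with no filter, 4 higher with DESeq2, 4 and 2 without the code letter A libraries, and 1 to 9 higher and 0 to 2 lower without single libraries (9 higher without control replicate 3). In A over D 109 were higher and 40 lower, against 269 and 96 with no filter, 50 and 19 with DESeq2, 189 higher in the 4 control libraries alone, and 15 to 183 higher and 3 to 55 lower without single libraries. The lowest counts came without control replicate 1 (15 higher) and without control replicate 3 (3 lower). In G over F 32 were higher and 9 lower, against 71 and 26 with no filter, 20 and 3 with DESeq2, 58 higher in the 4 ICSI-F2 libraries alone, and 13 to 38 higher and 0 to 35 lower without single libraries. Where a letter is left with 1 library, that library is assumed to vary like the others. In A over D, leaving out an ICSI-F2 library acts mainly through the shared spread, so such alternatives say little about the fold. Among single genes, Snap25 passed in A over D only with no filter (edgeR adjusted p = 0.0324). The scale relative to pan-neuronal genes was chosen after seeing the data.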
